A study of Homo sapiens with 13 samples.

Results

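Glucose and lactate transport and hypoxia genes were followed in parental and FK866-resistant CCRF-CEM leukemia cells through 10 genes: SLC2A1, SLC2A3, SLC16A1, SLC16A3, BSG, LDHB, PDK1, HIF1A, BNIP3 and VEGFA, of 25940 gene names on the array. All probes that carry one of these names in the array design were taken, 15 of the 34127 probes on the array. SLC2A1, SLC2A3, LDHB, HIF1A and VEGFA have 2 probes each, and the other 5 genes have 1. CCRF-CEM cells derive from a human acute leukemia of T lymphoblasts. FK866 inhibits NAMPT, the enzyme that turns nicotinamide into nicotinamide mononucleotide, from which NAD+ is made. Parental cells (CEM PA) given DMSO for 48 h, the mock treatment, fill 3 arrays, and CEM PA given 5 nM FK866 for 48 h fill 2. Resistant cells (CEM RES) given DMSO or 5 nM FK866 for 48 h fill 4 arrays each. CEM RES is one subline selected for growth in FK866 and resistant to 100 nM, and the study's methods state that it was kept in medium with that concentration. Mock-treated CEM RES were therefore not cells without a history of the drug. In RNA from a whole culture, fewer cells that express a gene and less RNA per cell cannot be told apart.

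Glucose enters most cells through facilitative transporters of the SLC2A family, of which GLUT1 (SLC2A1) and GLUT3 (SLC2A3) serve lymphoid cells. Glycolysis turns glucose into pyruvate and needs NAD+, which lactate dehydrogenase restores when it reduces pyruvate to lactate. Lactate leaves or enters the cell through the monocarboxylate transporters MCT1 (SLC16A1) and MCT4 (SLC16A3), which need the chaperone basigin (BSG) to reach the membrane. PDK1 phosphorylates and thereby inhibits pyruvate dehydrogenase, which limits the conversion of pyruvate to acetyl-CoA in the mitochondria. HIF1A encodes the oxygen-regulated subunit of hypoxia-inducible factor, which is controlled mainly through the stability of its protein. Among its well known targets are SLC2A1, SLC2A3, SLC16A3, PDK1, BNIP3, a mitochondrial receptor for mitophagy, and VEGFA, the vascular growth factor.

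The probes are oligonucleotides of 60 bases, and their positions are those of the array design on the hg19 build. Sequences of the probe pairs are shown because the 2 probes of a gene did not always give the same difference, and 2 of the probes cross a splice junction. One of them is the first SLC2A3 probe, A_23_P139669, whose ends lie 1445 bases apart at chr12:8075591-8077035 on the minus strand. The other is the first VEGFA probe, A_23_P70398, which spans 412 bases at chr6:43746223-43746634 on the plus strand. For the other SLC2A3 and the SLC2A1 probes the first 30 bases are given. The second SLC2A3 probe, A_24_P81900, lies at chr12:8072924-8072983. The SLC2A1 probes lie at chr1:43391874-43391933 (A_23_P571) and chr1:43396070-43396129 (A_33_P3344801), all on the minus strand, the latter designed on an Ensembl transcript and the former on the RefSeq transcript.
SLC2A3 A_23_P139669: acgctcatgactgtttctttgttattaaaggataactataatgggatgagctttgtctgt
SLC2A3 A_24_P81900: actggatgaaataactccttcttgtagtag
SLC2A1 A_23_P571: taaatacagacactaagttatagtatatct
SLC2A1 A_33_P3344801: agttgacagcaagatgacttgactcttctc
VEGFA A_23_P70398: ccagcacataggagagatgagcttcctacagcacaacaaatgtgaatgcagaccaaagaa

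HIF binds short sites with the core ACGTG or GCGTG, and 7 of the 10 genes have windows in the RefSeq promoter table of GRCh38.p14, which holds 250 bases before and 50 after each transcription start. SLC2A3, SLC16A1 and VEGFA have no entry in that table. Both cores were searched on both strands, so that the reverse complements CACGT and CACGC count too, and the palindrome CACGTG is a match on either strand. A core was found in 9 of the 14 windows of these genes, against 48.4% of all 35116 windows. The windows of BNIP3, PDK1 and SLC16A3 with ACGTG before the start are shown because these genes were lower in mock-treated CEM RES, past the adjusted threshold for PDK1 and SLC16A3 only. The matches are in capitals, and a match is a description and not a binding site.
BNIP3, chr10:131982013-131982076, minus strand: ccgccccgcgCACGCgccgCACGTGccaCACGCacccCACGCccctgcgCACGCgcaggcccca
PDK1, chr2:172556063-172556089, plus strand: tgctgcccgcCACGTccctCACGTacc
SLC16A3, chr17:82228964-82229001, plus strand: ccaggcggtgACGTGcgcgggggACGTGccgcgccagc
The BNIP3 window held 5 separate stretches with a core, 1 of them the palindrome. One of the 2 PDK1 windows and 3 of the 5 SLC16A3 windows held a core, and the only core of the SLC2A1 window, GCGTG, did not lie before the start. BSG, which was higher in CEM RES, also had 5 stretches with a core in one of its 2 windows, all before the start and with ACGTG among them. It thus also had ACGTG before the start, as the windows shown do. ACGTG occurred in 21.4% of all windows and GCGTG in 36.5%.

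On the 13 arrays 26457 to 33239 of 43118 spots that were no controls were well above background, and no spot was saturated. Spots flagged as outliers, which were left out, numbered 773 on mock CEM RES replicate 1 and 195 to 344 on the other arrays. The part of this in the values of that array was not tested. The cells carried the markers of their lineage, with 11 of 11 T lymphoblast genes well above background on all arrays, and so were 3 of 4 B cell, 2 of 3 myeloid, 2 of 4 epithelial (KRT8 and KRT18) and 1 of 2 erythroid genes. The epithelial genes EPCAM and CDH1 were above it on no array. The log2 of the summed signal of 3 myeloid markers ran from 9.80 to 10.24 in mock CEM PA and from 7.54 to 8.18 in mock CEM RES. The markers did not share a direction. CD68 was lower in mock CEM RES (6.996 against 9.939 in mock CEM PA), and CD14 was higher (6.475 against 5.816). CSF1R was lower (3.470 against 3.969) and well above background on only 7 of 13 arrays. The part of these myeloid markers in the differences between the lines was not tested. The CEM PA arrays were scanned in sessions 1 and 2 and all CEM RES arrays in session 3, so that line and scan session cannot be told apart in any comparison between the lines. Signals are on a log2 scale after quantile normalization, so that a difference of 1 is a doubling, and levels are compared only within a probe. Of the 15 probes, 14 passed the filter on dim probes (well above background throughout 1 or more groups) and were tested with limma's moderated test. The exception was the second VEGFA probe, A_24_P12401. A call is a Benjamini-Hochberg adjusted p under 0.05 over all 22751 probes tested. The double threshold of the study's methods is an unadjusted p under 0.05 together with a log2 difference beyond 0.75 in either direction.

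Of the 14 tested probes 7 had a higher and 7 a lower mean in mock-treated CEM RES, and 7 of the differences passed the adjusted test, 5 of them lower. SLC16A3 fell 3.81-fold, SLC2A3 4.68-fold by its brighter probe, SLC2A1 2.14-fold by its brighter probe and PDK1 2.12-fold in CEM RES relative to CEM PA when both were mock-treated. VEGFA was 2.10-fold and BSG 1.59-fold higher. In all, 2 of the 14 tested probes were called higher, where 24.9% of all probes were, and 5 called lower, where 22.7% were. The double threshold was passed by 7 of the 14 probes, against 35.6% of all probes. The arrays of the lines did not overlap for 6 of the 14, against 48.8% of all probes. With 14 probes nothing particular to the members is read from these counts. The median log2 difference of the 14 probes was -0.18, against 0.04 for all probes. Under FK866 the call as higher was made for 1 of the 14 probes, against 18.0% of all probes, and as lower for 4, also against 18.0%. There 3 of the 14 passed the double threshold, against 30.7%, and the arrays did not overlap for 7, against 57.8%.

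**Figure D1:**
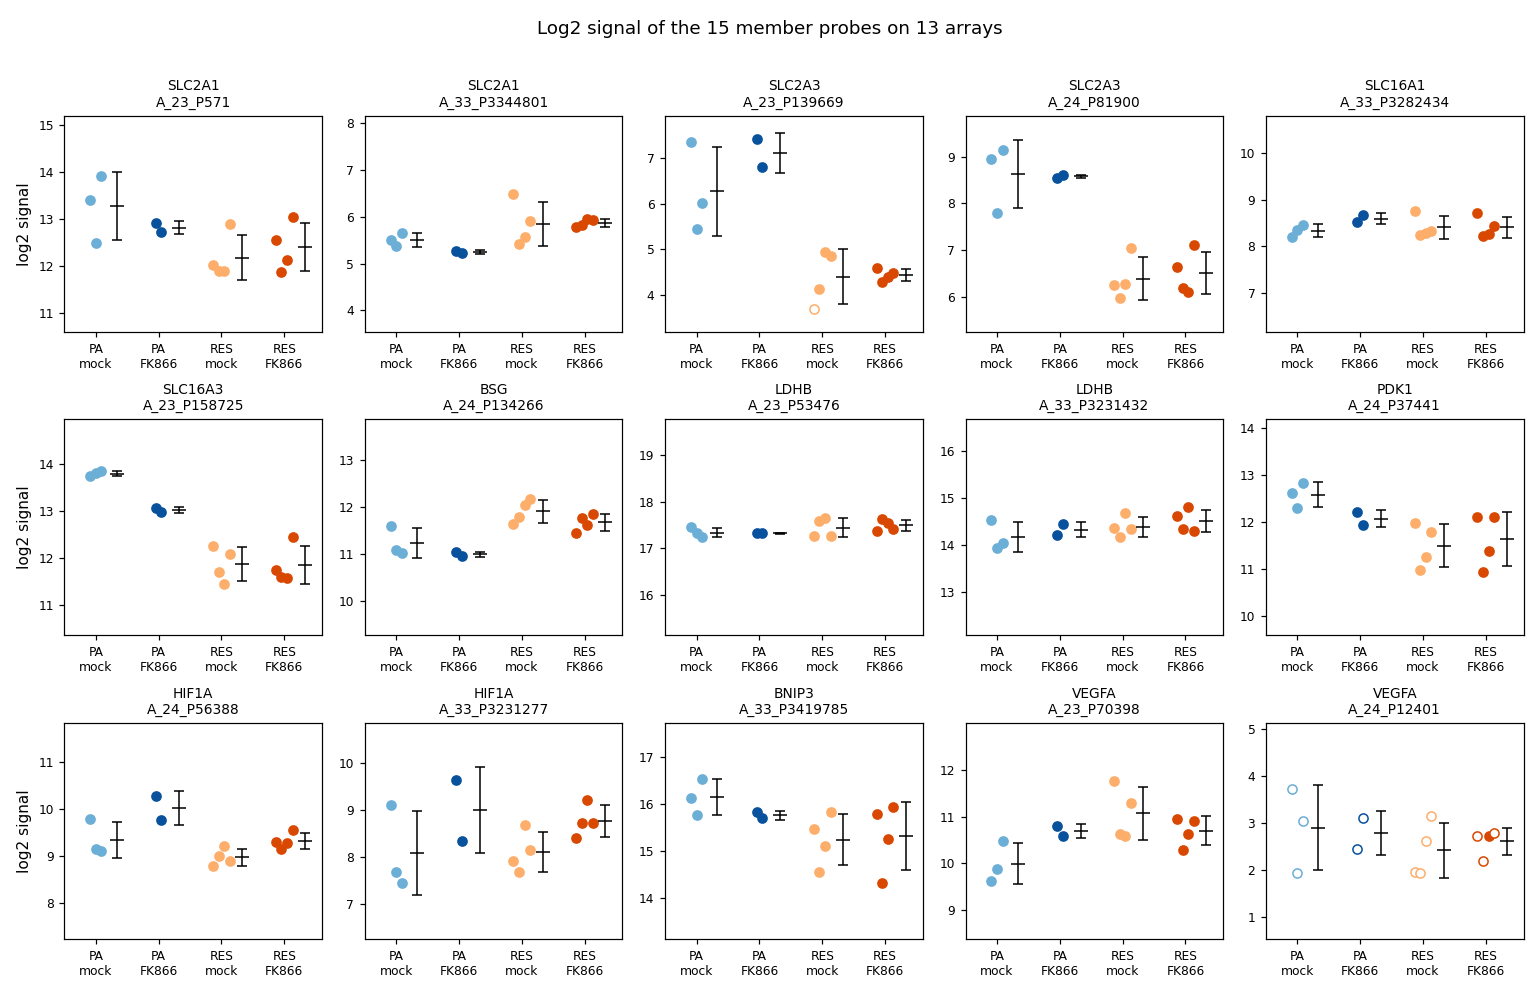
Log2 signal (y axes) of the 15 probes on 13 arrays, 1 panel a probe, with the 4 groups on the x axis: CEM PA and CEM RES (PA, RES), each mock-treated or with 5 nM FK866. Points are arrays, filled where the probe was well above background, and the bar beside each group is its mean ± SD; the SLC16A3 and both SLC2A3 panels show all CEM RES arrays below all CEM PA arrays, and A_24_P12401 of VEGFA was well above background on 1 of 13 arrays.

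GLUT1 is the basal glucose transporter of many cells. The SLC2A1 probe A_23_P571 read 13.41, 12.50 and 13.92 on the mock CEM PA arrays and 12.02, 11.91, 11.91 and 12.90 on the mock CEM RES arrays. The highest CEM RES array, replicate 4, lay above the lowest CEM PA array, replicate 2, so the groups overlapped. The log2 difference was -1.10 (standard error 0.36, limma adjusted p = 0.0253). With array quality weights it was -0.37 (limma adjusted p = 0.405), and without mock CEM PA replicate 3 it was -0.77 (limma adjusted p = 0.122). Without mock CEM PA replicate 1, or mock CEM RES replicate 1, 2 or 3, the adjusted p from limma lay between 0.0511 and 0.0788. Under FK866 the same probe read 12.92 and 12.72 in CEM PA against 12.56, 11.88, 12.14 and 13.04 in CEM RES. This smaller difference of -0.42 was within the spread of the arrays (95% confidence interval -1.31 to 0.48, limma adjusted p = 0.455).

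The second SLC2A1 probe, A_33_P3344801, did not show the lower signal. It read 5.49, 5.36 and 5.66 in mock CEM PA and 6.47, 5.42, 5.55 and 5.90 in mock CEM RES, a log2 difference of 0.33 (standard error 0.21, limma adjusted p = 0.223). With FK866 it read 5.27 and 5.22 in CEM PA against 5.77, 5.81, 5.95 and 5.92 in CEM RES, where all CEM RES arrays lay above both CEM PA arrays. That difference of 0.62 missed the adjusted threshold (limma adjusted p = 0.0639), which it passed in 6 alternatives. These were scaling to the 75th percentile (1.10, limma adjusted p = 0.0113), outlier spots kept, only the compared groups fitted, array quality weights, and mock CEM RES replicate 1 or 2 left out (0.61 to 0.63 in these 5). Over all 25 alternatives the difference ran from 0.24 to 1.10. The 2 probes of SLC2A1 thus had opposite signs in both comparisons between the lines, 1.43 apart in mock-treated cells and 1.04 apart under FK866. Which transcripts each probe detects was not tested.

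GLUT3 is a transporter of high glucose affinity. Its probe A_24_P81900 read 8.95, 7.79 and 9.14 in mock CEM PA and 6.27, 5.99, 6.29 and 7.05 in mock CEM RES. Every CEM RES array lay below every CEM PA array, and the log2 difference of -2.23 (standard error 0.35, limma adjusted p = 0.000314) was larger than the spread within either group. The junction probe A_23_P139669 read 7.37, 5.44 and 6.01 in mock CEM PA and 3.68, 4.14, 4.94 and 4.84 in mock CEM RES, where it was well above background on 3 of 4 arrays. The log2 difference of the junction probe was -1.87 (95% confidence interval -2.76 to -0.99, limma adjusted p = 0.00264). With the remaining array raised to the lowest signal above background on it, the fall was 3.60-fold. Under FK866 the brighter probe read 8.55 and 8.60 in CEM PA against 6.64, 6.21, 6.12 and 7.11 in CEM RES, a difference of -2.05 (limma adjusted p = 0.00195). The junction probe read 7.44 and 6.80 against 4.58, 4.28, 4.39 and 4.48, a difference of -2.68 (limma adjusted p = 0.00101). Both SLC2A3 probes were thus called lower in CEM RES with and without FK866. They kept these calls in every alternative that tested them. The size was smaller with the normexp background, -0.71 for the junction probe and -1.56 for the brighter one in mock cells.

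SLC2A3 has a close paralog, SLC2A14, whose array probe A_32_P47754 moved with it. That probe shares a run of at most 5 bases with either SLC2A3 probe, which compares the probes with each other and not with the transcripts. Whether SLC2A3 probes also bind SLC2A14 RNA, or the SLC2A14 probe SLC2A3 RNA, was not tested. The SLC2A14 probe had a mean log2 signal of 11.17 ± 0.83 (SD, n = 3) in mock CEM PA and 9.18 ± 0.54 (SD, n = 4) in mock CEM RES.

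MCT4 exports lactate from glycolytic cells, and its gene had the lowest adjusted p of all members between the mock-treated lines. The SLC16A3 probe A_23_P158725 (chr17:80197288-80197347) read 13.74, 13.81 and 13.85 in mock CEM PA, 13.07 and 12.98 in CEM PA with FK866, 12.25, 11.69, 11.45 and 12.08 in mock CEM RES, and 11.75, 11.61, 11.58 and 12.44 in CEM RES with FK866. All CEM RES arrays lay below all CEM PA arrays. The log2 difference between the lines was -1.93 in mock cells (standard error 0.23, limma adjusted p = 5.12e-05) and -1.18 under FK866 (standard error 0.26, limma adjusted p = 0.00465). The latter had an adjusted p of 0.0533 from limma without CEM PA FK866 replicate 1, where 1 CEM PA array was left. Within CEM PA the FK866 arrays lay below all mock arrays, a difference of -0.78 (standard error 0.28). It passed the double threshold (unadjusted p = 0.0161 from limma) but not the adjustment (adjusted p = 0.211).

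MCT1, the more widely expressed lactate transporter, did not show such a difference. The SLC16A1 probe A_33_P3282434 (chr1:113454503-113454562) read 8.20, 8.34 and 8.46 in mock CEM PA and 8.76, 8.25, 8.29 and 8.32 in mock CEM RES. The groups overlapped, and the 95% confidence interval of the log2 difference of 0.07 ran from -0.30 to 0.44 (limma adjusted p = 0.752). In CEM PA with FK866 it read 8.51 and 8.68, above all mock arrays, by 0.26 (standard error 0.20, limma adjusted p = 0.637).

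Basigin, the partner of both transporters, was higher in CEM RES. The BSG probe A_24_P134266 (chr19:583119-583178) read 11.60, 11.09 and 11.02 in mock CEM PA and 11.64, 11.78, 12.04 and 12.17 in mock CEM RES, with no overlap, though the nearest arrays of the lines, 11.60 and 11.64, were close. The log2 difference was 0.67 (standard error 0.18, limma adjusted p = 0.00977), under the fold change limit of 0.75. Under FK866 it read 11.04 and 10.96 in CEM PA against 11.45, 11.77, 11.62 and 11.86 in CEM RES, a difference of 0.68 (standard error 0.21, limma adjusted p = 0.0240). This call was lost when CEM PA FK866 replicate 1 or 2, or CEM RES FK866 replicate 2 or 4, was left out (adjusted p from 0.0515 to 0.127 from limma).

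LDHB encodes the lactate dehydrogenase subunit that favours the conversion of lactate to pyruvate, and its probes varied little. Over the 13 arrays A_23_P53476 (chr12:21788449-21788508) read from 17.25 to 17.65, and A_33_P3231432 (chr12:21791305-21791364) from 13.94 to 14.81. The lines differed in mock cells by 0.10 (95% confidence interval -0.21 to 0.41) and 0.22 (-0.19 to 0.63), with limma adjusted p values of 0.587 and 0.358. Its 4 differences for FK866 against mock lay between -0.01 and 0.16, all within the spread of the arrays.

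PDK1 was lower in CEM RES in the mock comparison. Its probe A_24_P37441 (chr2:173463273-173463332) read 12.63, 12.31 and 12.83 in mock CEM PA and 11.99, 10.98, 11.26 and 11.79 in mock CEM RES. All CEM RES arrays were below the lowest CEM PA array, and the log2 difference was -1.09 (standard error 0.31, limma adjusted p = 0.0128, and 0.0508 without mock CEM PA replicate 3). Under FK866 the CEM PA arrays read 12.21 and 11.95 and the CEM RES arrays 12.11, 10.95, 11.39 and 12.12. The groups then overlapped, and the difference was -0.44 (95% confidence interval -1.21 to 0.33, limma adjusted p = 0.360).

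HIF1A has a probe printed 10 times on each array, A_24_P56388 (chr14:62214845-62214904), and a single one, A_33_P3231277 (chr14:62211472-62211531). The first read 9.78, 9.14 and 9.10 in mock CEM PA, 10.27 and 9.76 with FK866, 8.79, 8.99, 9.21 and 8.88 in mock CEM RES, and 9.30, 9.14, 9.28 and 9.54 in CEM RES with FK866. In mock cells the lines overlapped and differed by -0.37 (standard error 0.20, limma adjusted p = 0.145). Under FK866 all CEM RES arrays lay below both CEM PA arrays, a difference of -0.70 (standard error 0.23, limma adjusted p = 0.0310). That call was lost without CEM PA FK866 replicate 1 (-0.44, limma adjusted p = 0.325), without CEM RES FK866 replicate 1, 2 or 3 (limma adjusted p from 0.0558 to 0.0681) and without the filter on dim probes (limma adjusted p = 0.0535).

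The second HIF1A probe read 9.10, 7.68 and 7.45 in mock CEM PA, 9.64 and 8.34 with FK866, 7.90, 7.68, 8.68 and 8.14 in mock CEM RES, and 8.39, 8.72, 9.20 and 8.72 in CEM RES with FK866. Under FK866 the lines overlapped in this probe, and its difference of -0.24 was within the spread (limma adjusted p = 0.727). Both probes had a higher mean on the FK866 arrays than on the mock arrays in both lines, with groups that overlapped. In CEM PA the differences were 0.67 and 0.92 (limma adjusted p = 0.206 and 0.435), and in CEM RES 0.35 and 0.66 (limma adjusted p = 0.946 and 0.950). None passed the adjusted threshold. With array quality weights the first was 0.80 in CEM PA (limma adjusted p = 0.0231). Scan session moved with HIF1A in CEM PA: the mock array of session 1 lay above the mean of the session 2 mock arrays by 0.66 and 1.53, and the FK866 arrays differed by 0.51 and 1.30 in the same order. Within session 1 the FK866 differences were 0.49 and 0.54, and within session 2 0.64 and 0.78. On both CEM RES slides they were positive as well, 0.24 and 0.38 on slide 5 and 0.45 and 0.93 on slide 6. The part of the session in the HIF1A values was not tested further.

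BNIP3 and VEGFA are both known targets of HIF, and between the mock-treated lines VEGFA passed the adjusted test and BNIP3 did not. The BNIP3 probe A_33_P3419785 (chr10:133781881-133781940) read 16.14, 15.77 and 16.53 in mock CEM PA and 15.48, 14.56, 15.11 and 15.82 in mock CEM RES, with CEM RES replicate 4 above CEM PA replicate 2. Its log2 difference was -0.91 (standard error 0.38), past the double threshold and not the adjusted one (limma adjusted p = 0.0655). With replicate number as a block the limma adjusted p was 0.0398. Of 26 alternatives 6 called it, and over all 26 the limma adjusted p ran from 0.0255 to 0.265. With array quality weights the difference was -0.49. Under FK866 it read 15.84 and 15.70 in CEM PA against 15.78, 14.32, 15.26 and 15.94 in CEM RES, a difference of -0.44 (95% confidence interval -1.37 to 0.49).

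The VEGFA junction probe A_23_P70398 read 9.62, 9.89 and 10.49 in mock CEM PA and 11.76, 10.63, 10.58 and 11.29 in mock CEM RES. All CEM RES arrays were above all CEM PA arrays, by 1.07 on the mean (standard error 0.30, limma adjusted p = 0.0114, and 0.0580 without mock CEM PA replicate 1). With FK866 it read 10.80 and 10.59 in CEM PA against 10.95, 10.28, 10.63 and 10.90 in CEM RES, which overlapped (95% confidence interval of the difference -0.74 to 0.74, limma adjusted p = 0.999). The response to FK866 was 0.70 in CEM PA and -0.37 in CEM RES. The difference between these responses was -1.07 (standard error 0.45, unadjusted p = 0.0361, adjusted p = 0.370 from limma). The second VEGFA probe, A_24_P12401 (chr6:43753511-43753570), read between 1.93 and 3.72 and was well above background on 1 of 13 arrays, a CEM RES array with FK866, so it gives no comparison.

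**Figure D2:**
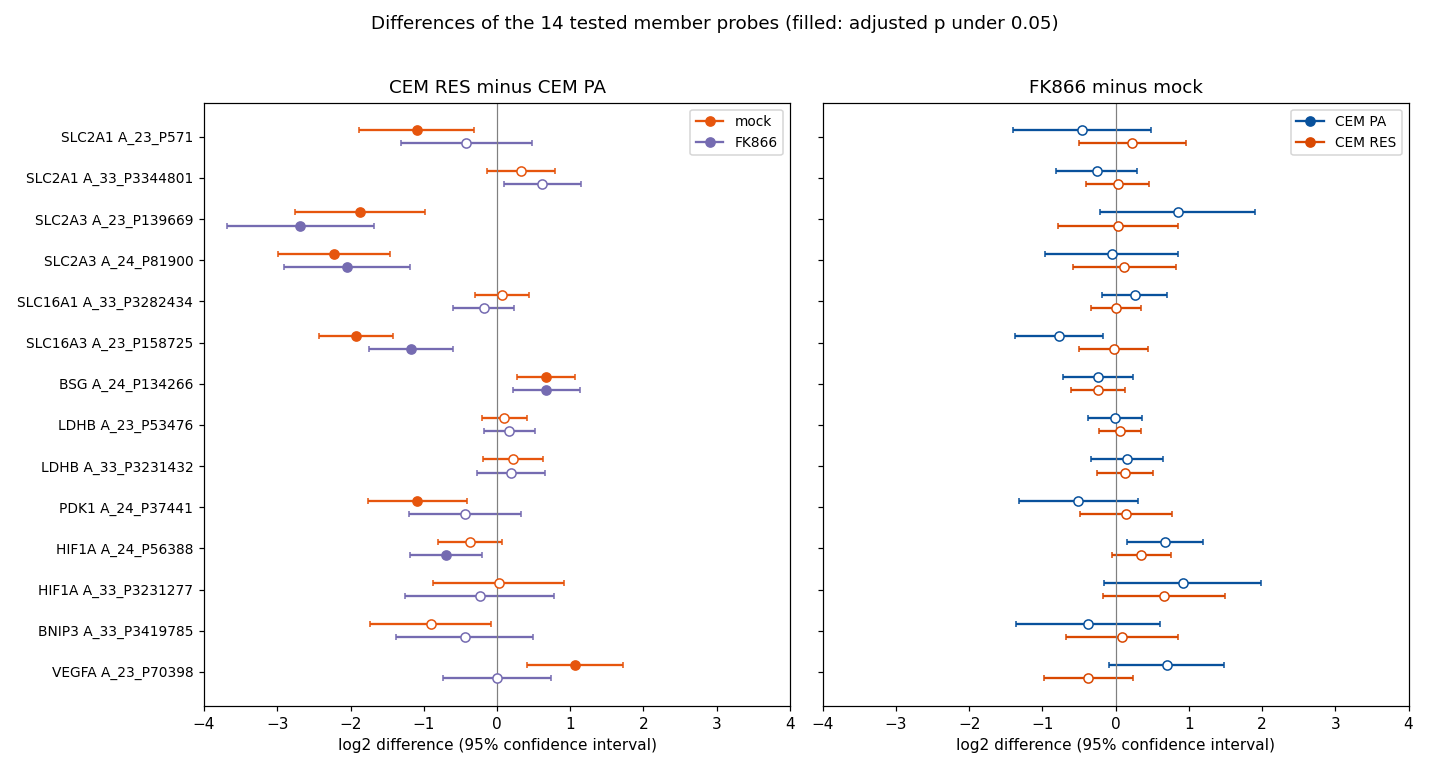
Log2 differences of the 14 tested probes with their 95% confidence intervals (x axes), CEM RES minus CEM PA on the left (mock-treated, or both under FK866) and FK866 minus mock on the right (in CEM PA or in CEM RES). Filled points passed an adjusted p of 0.05: 7 and 5 on the left, and 0 of 28 on the right.

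Exposure to 5 nM FK866 called no member. In CEM PA 0 of 14 probes had an adjusted p under 0.05 in limma (2 at an unadjusted p under 0.05, SLC16A3 as lower and A_24_P56388 of HIF1A as higher), against 1.53% of all probes. With array quality weights 3 were called, against 8.05% of all probes: A_24_P56388 of HIF1A, the SLC2A3 junction probe (1.36, limma adjusted p = 0.0436) and SLC16A3 (-0.78, limma adjusted p = 0.0499). The double threshold was passed by 1 of 14, SLC16A3, against 6.69%. The arrays did not overlap for 5 of 14, against 34.8%. In CEM RES 0 of 14 were called, as were 0% of all probes, and 0 of 14 passed an unadjusted p under 0.05. There 0 of 14 passed the double threshold, against 1.30%, and the arrays did not overlap for 0, against 2.91%. The difference between the responses of the lines was called for 0 of 14 probes, against 0.413% of all probes, with 1 probe, the VEGFA junction probe, at an unadjusted p under 0.05. With 2 arrays of CEM PA under FK866 the intervals were wide: for SLC2A1 A_23_P571 the response in CEM PA ran from -1.40 to 0.49, and for BNIP3 from -1.36 to 0.60.

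The probes of a gene agreed in sign in some comparisons and not in others. In mock-treated cells the SLC2A3 probes differed between the lines by -1.87 and -2.23 and the LDHB probes by 0.10 and 0.22, whereas the SLC2A1 probes gave -1.10 and 0.33 and the HIF1A probes -0.37 and 0.02. For FK866 in CEM PA the SLC2A3 probes gave 0.85 and -0.05, neither past the test (limma adjusted p = 0.477 and 0.982). The junction probe varied most there, since the mock CEM PA array of session 1 read 1.64 above the mean of the session 2 mock arrays, against 0.49 for the other probe. Within session 1 the junction probe changed by 0.07 with FK866 and within session 2 by 1.08.

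Among arrays of the same group, 4 probes often had the same order in 3 of the 4 groups. These 4 of the 14 tested probes were picked by no rule set beforehand. Over all 14, 8 were highest on mock CEM PA replicate 3 and 7 lowest on its replicate 2. For mock CEM RES 5 were highest on replicate 1, 5 on replicate 3 and 4 on replicate 4, and 8 were lowest on replicate 2 and 4 on replicate 1. For CEM RES with FK866 7 were highest on replicate 4 and 7 lowest on replicate 2. In mock CEM PA, SLC2A1 (A_23_P571), SLC2A3 (A_24_P81900), PDK1 and BNIP3 were all highest on replicate 3 and lowest on replicate 2. In CEM RES with FK866 all 4 were highest on replicate 4, and SLC2A1, PDK1 and BNIP3 were lowest on replicate 2, while SLC2A3 was lowest on replicate 3. In mock CEM RES all 4 were lowest on replicate 2, and SLC2A1, SLC2A3 and BNIP3 were highest on replicate 4, while PDK1 was highest on replicate 1. In CEM PA with FK866, SLC2A1, PDK1 and BNIP3 were higher on replicate 1 and SLC2A3 on replicate 2. The junction probe of SLC2A3 did not follow, highest on replicate 1 in mock CEM PA and lowest on replicate 1 in mock CEM RES. LDHB (A_23_P53476) did not follow either, with its lowest value in both CEM RES groups on replicate 1. In CEM RES, mock replicate 4 was on slide 5 and FK866 replicate 4 on slide 6, and both replicates numbered 2 were on slide 6. The range within a group reached 1.62 for BNIP3 in CEM RES with FK866, 1.42 for SLC2A1 in mock CEM PA and 1.17 for PDK1 in CEM RES with FK866. In mock CEM PA and mock CEM RES in turn, the ranges were 1.42 and 0.99 for SLC2A1 and 0.76 and 1.26 for BNIP3. The difference between the mock-treated lines, -1.10 for SLC2A1 and -0.91 for BNIP3, was smaller in size than the larger of these. For PDK1 the mock ranges were 0.52 and 1.01, both smaller than its difference of -1.09. The SD within groups, pooled over the 4 groups, was 0.53 for SLC2A1, 0.51 for SLC2A3, 0.45 for PDK1 and 0.55 for BNIP3, against 0.14 for LDHB and a median of 0.30 over all probes. What the arrays that read high or low share was not tested.

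**Figure D3:**
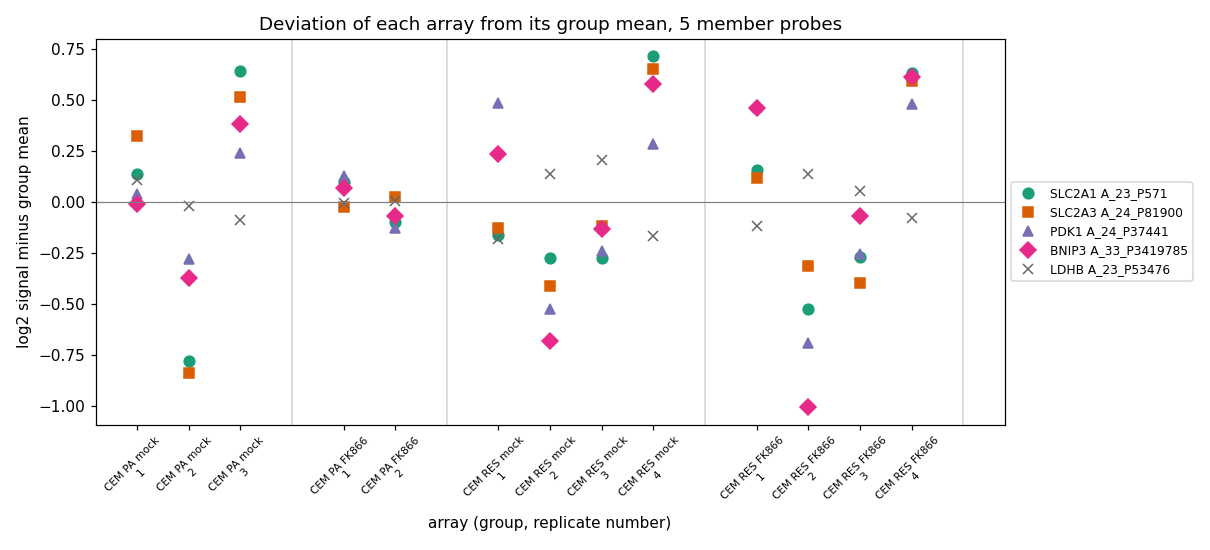
Log2 signal minus the group mean (y axis) of 5 probes on each of the 13 arrays (x axis, group and replicate number). The 5 were picked by no rule set beforehand. SLC2A1, SLC2A3, PDK1 and BNIP3 all lie above 0 on mock CEM PA replicate 3 and on replicate 4 of both CEM RES groups, and below 0 on replicate 2 of mock CEM PA and of both CEM RES groups, while LDHB stays within 0.21 of 0.

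Of 65 further gene symbols of these pathways, 63 were on the array and 50 were tested by their brightest probe. The symbols not on it were MPC1 and MPC2, genes that it carries under the older symbols BRP44L and BRP44, both tested. In mock-treated cells 8 were called higher and 17 lower in CEM RES. Of 20 known HIF targets 10 were called lower, against 22.7% of all probes, and 1 higher, against 24.9%, with a median log2 difference of -0.93. The median of all probes in this comparison was 0.04, and 0.16 when arrays were scaled to their 75th percentile instead. ALDOC, a glycolytic aldolase, read 12.89, 12.73 and 11.66 in mock CEM PA and 9.45, 8.50, 9.68 and 10.75 in mock CEM RES, a difference of -2.83 (limma adjusted p = 0.00149). Of 11 genes of glucose transport 3 were called higher and 3 lower, and of 12 for lactate and pyruvate 3 and 2. Under FK866 6 of the 50 were called higher and 10 lower, among the HIF targets 1 and 4 of 20, against 18.0% of all probes in either direction.

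Among the genes past these criteria, the largest fall and the largest rise were in oxygen sensing. EPAS1, which encodes the HIF-2 alpha subunit, read 9.49, 9.71 and 9.87 in mock CEM PA and 4.71, 5.05, 4.52 and 4.74 in mock CEM RES. Its log2 signal fell by 4.94 (standard error 0.20, limma adjusted p = 7.09e-08). Under FK866 it fell by 5.50 (limma adjusted p = 1.02e-07). HIF3A, the gene of another alpha subunit, read 7.39, 7.59 and 7.93 in mock CEM PA and 11.05, 10.01, 11.47 and 11.09 in mock CEM RES. It was higher by 3.26 (limma adjusted p = 1.12e-05), and by 3.03 under FK866 (limma adjusted p = 9.27e-05). HIF1A itself differed by far less in both probes. Of the 7 tested genes of oxygen sensing 1 was called higher in mock-treated cells, against 24.9% of all probes, and 2 lower, against 22.7%. With 7 genes nothing particular to oxygen sensing is read from these counts.

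SLC16A7 encodes MCT2, a monocarboxylate transporter of high affinity, and was the 1 gene of the 50 that FK866 called in CEM PA, as higher, against 1.53% of all probes. It read 5.48, 5.66 and 5.97 in mock CEM PA and 6.58 and 6.76 with FK866, a difference of 0.97 (standard error 0.20, limma adjusted p = 0.0333). No gene of the list was called there with 75th percentile scaling, without the filter, with 1 probe per gene, with only CEM PA arrays fitted, or without CEM PA FK866 replicate 1 or 2, mock CEM PA replicate 1 or CEM RES FK866 replicate 1. With replicate number as a block 7 of the 50 were called, against 5.35% of all probes. In CEM RES it read 8.14, 8.29, 8.29 and 7.80 without and 8.04, 8.18, 7.97 and 8.01 with FK866. Between the lines it was higher in CEM RES by 2.43 in mock cells (limma adjusted p = 1.08e-06) and by 1.38 under FK866 (limma adjusted p = 0.000216). TXNIP, which restrains glucose uptake through GLUT1, differed between the lines by -3.23 under FK866 (limma adjusted p = 1.67e-05). It read 16.49 and 16.06 in CEM PA against 13.32, 12.89, 13.01 and 12.94 in CEM RES. Without FK866 it also differed, by -2.64 between the mock-treated lines (limma adjusted p = 1.11e-05). The list had 0 calls for FK866 in CEM RES and 0 for the difference between the responses, for which the replicate block gave 3 of 50, against 2.14% of all probes.

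**Figure D4:**
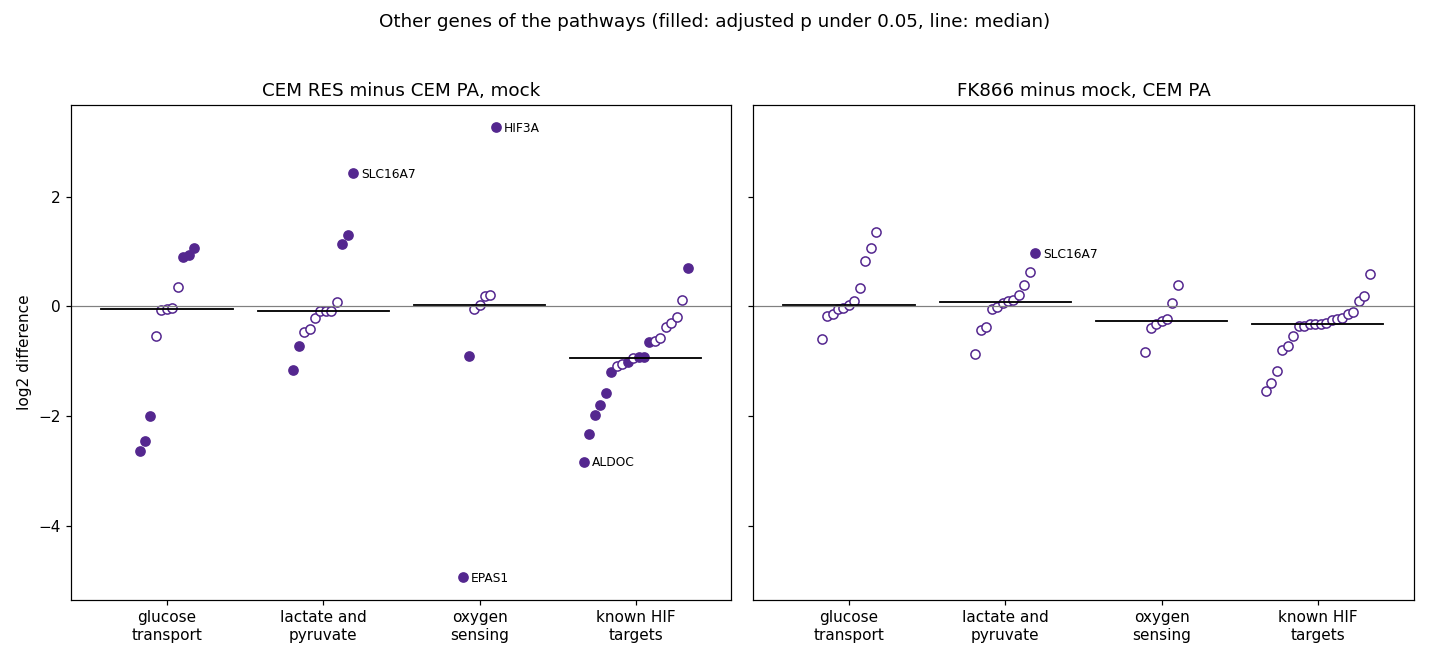
Log2 differences (y axis) of the 50 tested genes of the wider pathways by role (x axis), for CEM RES minus CEM PA in mock-treated cells (left) and FK866 minus mock in CEM PA (right). Filled points passed an adjusted p of 0.05, horizontal lines are medians, and the named genes are those the text describes: EPAS1 lies at -4.94, and the HIF targets have a median of -0.93 on the left.

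The probes most like 3 members in their pattern were sought by Pearson correlation over the 13 arrays, which holds the difference between the lines and is given as a description. For SLC2A3 (A_24_P81900) they were SLC2A14 (0.977) and ASAP3 (0.976). For SLC16A3 they were C3orf18 (0.994) and SULF2 (0.994), and for SLC2A1 (A_23_P571) SLC22A13 (0.973) and NFIL3 (0.961). The lower signal of CEM PA under FK866 is part of what the correlation with SLC16A3 measures. C3orf18 read 9.96, 9.98 and 10.07 on the mock CEM PA arrays and 9.06 and 8.80 on the CEM PA arrays with FK866. SULF2 had means of 7.68 and 6.33 in the same groups.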

How the data were processed

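RNA of the 4 groups was measured on 13 arrays of 1 colour (Agilent Human GE 4x44K v2). The authors deposited scanner files with a background-corrected intensity for each spot, made with Feature Extraction (10.7.7.1 per the submitters' notes), and a log2 table that they had quantile normalized, used here as an alternative only. For this report the intensities were taken to log2, outlier spots were left out, arrays were quantile normalized, and spots of a probe were averaged. The filter on dim probes kept 22751 of 34127. One model of the 4 groups was fitted with limma 3.58.1 in R 4.3.3, two-sided, with Benjamini-Hochberg adjustment over the kept probes. Arrays give no counts, and their number limits the precision. The series' design text calls the samples of a group biological replicates.

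Members and lists were chosen with earlier results of these data known. All probes of the 10 genes are given. Of the wider list, the text names per comparison up to 2 rises and 2 falls, the largest past the adjusted threshold, among genes without overlap and well above background in both groups. For the 3 members that differed most between mock-treated lines, the 2 most correlated probes are named. C3orf18 and SULF2 values were added after they were seen.

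The sample titles number the replicates and do not state that mock and FK866 arrays of the same number are paired. Deviations from the group means correlated across probes for arrays of the same number (CEM PA 0.460 and 0.353, CEM RES 0.199, 0.388, 0.474 and 0.289), so the number was also used as a block. Arrays of unlike numbers were not compared. In CEM PA both arrays numbered 1 were of session 1 and both numbered 2 of session 2, so number and session cannot be told apart there. Deviations of its 2 FK866 arrays mirror each other, so its 2 correlations are not independent. Alternatives covered scaling, background, filters, outlier spots, 1 probe per gene, the deposited table, the arrays fitted, slide, scan session, array weights, a variance trend and each array left out. The fit was tested on simulated data. No annotation of hg19 was used, so exons and UTRs are not given for the probes.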

Additional observations from a re-analysis of the deposited data

Results flagged for a closer look

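In 3 of the 30 groups of 4 arrays tested (15 probes, 2 groups each) 1 array lay far from the others, with a gap to its neighbour, as a share of the whole range, above Dixon's 95% critical value, which chance gives in about 1 of 20 groups. SLC2A1 (A_23_P571) read 12.90 on mock CEM RES replicate 4, against 11.91 to 12.02 on the others. SLC16A1 (A_33_P3282434) read 8.76 on mock CEM RES replicate 1, against 8.25 to 8.32. VEGFA (A_24_P12401), a probe that was not well above background there, read 2.19 on CEM RES FK866 replicate 2, against 2.71 to 2.79.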

How the results depend on the processing

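Of 1753 values of members under alternatives, 1720 kept their side of the threshold, 18 lost a call, 15 gained one and 0 called values reversed. The 1720 include 82 that changed sign without a call. For FK866 in CEM PA, array quality weights called 3 members in place of 0, and leaving out each array called 0. Between the lines under FK866 the 5 called members became 3 to 6 when an array outside CEM PA FK866 was left out. The 3 were without CEM RES FK866 replicate 2, where 3498 of 22813 probes were called higher and 3613 lower. With all arrays 4099 of 22751 probes were called higher and 4087 lower. Without CEM PA FK866 replicate 1 the differences were -1.13 for SLC16A3, 0.72 for BSG and -0.44 for A_24_P56388 of HIF1A. With all arrays they were -1.18, 0.68 and -0.70. Between mock-treated lines all arrays gave 5667 of 22751 probes called higher and 5169 lower. Without mock CEM PA replicate 1, 5053 of 24036 were called higher and 4470 lower. The 7 called members between these lines became 5 to 8 when each array was left out. The replicate block added BNIP3 there (-0.91, limma adjusted p = 0.0398) and changed no other call of a member. Over all probes, calls for FK866 in CEM PA numbered 348, and 1218 with the replicate block, 1832 with quality weights, 580 with normexp, 191 without the filter, 90 with 1 probe per gene and 3 with only CEM PA arrays fitted. They fell to 47 without CEM PA FK866 replicate 1. For the difference between the responses 94 became 486, 452, 186, 56 and 23 under the first 5 of these. Past the double threshold normexp gave 617 in place of 1523 in CEM PA and 4818 in place of 8105 between mock-treated lines. With 75th percentile scaling the share of higher calls went from 72.7% to 62.2% for FK866 in CEM PA and from 50.1% to 60.6% between the lines under FK866. The causes were not tested. Leaving out a CEM PA FK866 array leaves 1, whose spread is then taken from the other groups. Blocking on scan session gave no value for CEM RES alone or the difference between responses.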
